A study of Homo sapiens with 148 samples.

Results

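H/ACA box small nucleolar RNAs (SNORA) and small Cajal body RNAs (SCARNA) were followed across 6 stages of human pancreatic differentiation. The RNAs described are the SNORA and SCARNA names that reached 10 TPM (a share of the library scaled by transcript length) in at least 1 stage, after entries that share a name were summed. This gave 79 RNAs, 64 SNORA and 15 SCARNA, of 143 SNORA and SCARNA names and of 49085 names in all. The highest stage level therefore chose them and is a description here. In hESCs 54 of the 79 reached 10 TPM. The others entered through a later stage, so a level above hESCs in some stage was fixed for them by the choice. Just inside the limit were SNORA71B, SNORA8 and SNORA14B, with highest levels of 10.3, 10.4 and 10.5 TPM, and just outside it were SCARNA23, SCARNA20 and SNORA2A, with 9.84, 9.74 and 9.21 TPM. Of the 64 names below the limit, 42 reached 1 TPM in some stage.

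An H/ACA RNA folds into hairpins followed by an H box and an ACA triplet near the 3′ end, and binds dyskerin (DKC1), NOP10, NHP2 and GAR1. Most SNORA guide this particle to uridines of ribosomal RNA, which dyskerin turns into pseudouridine. SCARNA carry H/ACA hairpins, C/D boxes or both, reside in Cajal bodies and guide the modification of spliceosomal small nuclear RNAs. In human cells most of these RNAs are trimmed out of introns of other genes.

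All samples were wild type H9 cells, an established human embryonic stem cell line, or cells differentiated from it. The stages were undifferentiated hESCs, definitive endoderm (DE, day 4), primitive gut tube (PGT, day 7), pancreatic progenitors (PP, day 14), a stage labelled PH that the sources do not define, and organoids of β cells grown from the stem cells (SC-β, day 35). Each stage had 2 RNA-seq samples, 12 of the 148 samples of the study, and the values used are the authors' mean over both, so no spread between replicates, no depth and no test can be given. A change is called here when a stage mean is at least 2-fold above or below the hESC mean on the log2(TPM + 1) scale, which understates the change of RNAs near 1 TPM. All comparisons with hESCs share the hESC mean. Summed over 3 markers each, the marker lists of hESCs, DE, PGT and SC-β organoids were highest in the stage they belong to, at 1627, 619, 137 and 1105 TPM. The list of PP (PDX1, NKX6-1 and SOX9) did not single out its stage, with 29.0 TPM in PP, 27.5 TPM in PH and 32.2 TPM in SC-β organoids. In PH, PDX1 was at 0.0173 TPM against 3.17 TPM in PP, whereas SOX9 was at 27.2 against 23.7 TPM and INS at 6.86 against 6.93 TPM. The sum of 3 neural markers (LHX5, HES5 and FABP7) was 182 TPM at PH against 0.328 to 11.2 TPM elsewhere, and that of 3 mesenchymal markers (COL1A1, TWIST1 and COL3A1) was 417 TPM at PH and 895 TPM in SC-β organoids against 8.61 to 28.7 TPM elsewhere. The part of such cells in the levels of the small RNAs was not tested, and in these bulk samples fewer cells that make an RNA cannot be told apart from less of it per cell.

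4 of the RNAs are shown with their sequences, read from hg38 at the positions of the GENCODE annotation: the paired SNORA73A and SNORA73B, which were the most abundant SNORA, SCARNA21, which had the largest increase of any SCARNA, and SNORA24, which was lower in every stage after hESCs. Capitals mark matches to the H box, ANANNA, that start in the middle of the RNA and the last ACA triplet within its last 10 bases, searched on the RNA strand only.
SNORA73A: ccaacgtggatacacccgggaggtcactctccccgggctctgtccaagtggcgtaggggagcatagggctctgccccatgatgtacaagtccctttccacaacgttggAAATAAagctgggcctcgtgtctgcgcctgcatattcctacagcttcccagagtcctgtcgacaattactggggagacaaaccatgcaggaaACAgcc
SNORA73B: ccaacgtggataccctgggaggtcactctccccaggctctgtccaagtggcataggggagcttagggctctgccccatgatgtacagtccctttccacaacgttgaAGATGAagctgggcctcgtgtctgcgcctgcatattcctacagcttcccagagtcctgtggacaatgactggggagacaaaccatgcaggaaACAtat
SCARNA21: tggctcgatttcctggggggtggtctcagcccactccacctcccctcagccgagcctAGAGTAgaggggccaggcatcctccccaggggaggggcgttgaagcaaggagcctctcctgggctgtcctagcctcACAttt
SNORA24: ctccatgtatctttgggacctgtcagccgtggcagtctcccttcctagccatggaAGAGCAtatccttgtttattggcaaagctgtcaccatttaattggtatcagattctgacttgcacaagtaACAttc
All 4 lie on the plus strand, each in an intron. SNORA73A (chr1:28507366-28507571) and SNORA73B (chr1:28508559-28508762) are in SNHG3, which overlaps RCC1, and are identical at 192 of 206 aligned positions (93.2%). SCARNA21 (chr17:7906122-7906260) is in CHD3, a chromatin remodeller, and SNORA24 (chr4:118279190-118279320) is in SNHG8. An ACA triplet exactly 3 bases from the end was found in 70.4% of the 54 SNORA described here that have 1 annotated locus, in 66.7% of all 213 annotated SNORA and in 1.61% of 310 annotated C/D box RNAs (SNORD). Matches to the H box in the middle of the RNA, between 40% and 65% of its length, were found in 92.6%, 87.3% and 49.0% of these sets. Among the 15 SCARNA, 40% ended in the ACA triplet and 80% held TGAG, the letters of the Cajal body box, which 84.5% of all annotated SNORD also held.

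The 79 RNAs together took 1.03% of all TPM in hESCs, 1.57% in DE, 1.75% at PGT, 1.15% at PP, 1.47% at PH and 1.48% in SC-β organoids. The summed SNORA level was 7963 TPM in hESCs, 12240.5 in DE, 11895 at PGT, 6573 at PP, 5149.6 at PH and 8547 in SC-β organoids. The summed SCARNA level was 2344 TPM in hESCs, 3484 in DE, 5594 at PGT, 4924 at PP, 9507 at PH and 6266 in SC-β organoids. The SNORA sum was thus highest in DE and lowest in PH, the stage in which the SCARNA sum was highest and exceeded it. Its maximum in DE depends on the scaling. As a share of the TPM outside 6 abundant structural RNAs, the SNORA sum was 1.80% in DE and 1.89% at PGT. The 74 SNORD chosen by the same limit summed to between 7360.4 TPM at PP and 10133 TPM at PGT. A few RNAs made up these sums, since the 10 most abundant held between 79.4% and 84.3% of the total of the 79 in each stage.

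**Figure D1:**
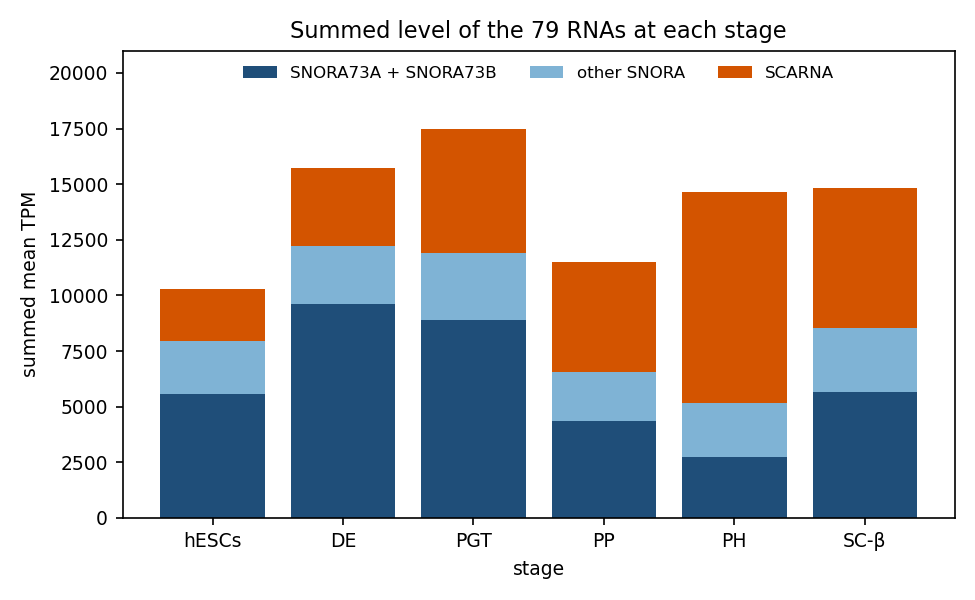
Summed mean TPM (y axis) of the 79 RNAs at each stage (x axis), split into SNORA73A with SNORA73B, the 62 other SNORA and the 15 SCARNA. The pair accounts for 9597 TPM in DE and 2725 TPM at PH, and the SCARNA for 2344 TPM in hESCs and 9507 TPM at PH.

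SNORA73A and SNORA73B (U17), which act in cleavage of the ribosomal RNA precursor and not as pseudouridine guides, took the larger share of the SNORA sum in every stage. SNORA73A was at 3069 TPM in hESCs, 5079 in DE, 4785 at PGT, 2347 at PP, 1499.9 at PH and 2890.5 in SC-β organoids. SNORA73B was at 2503 TPM in hESCs, 4518 in DE, 4131 at PGT, 2001 at PP, 1225 at PH and 2771 in SC-β organoids. Both were highest in DE and lowest in PH, and only in PH did they pass the 2-fold limit against hESCs, at log2 ratios of -1.03 each. The maximum in DE depends on the scaling. After rescaling every stage by its median ratio over genes, PGT was narrowly above DE. The rescaled log2 ratios at PGT and in DE were 0.30 and 0.24 for SNORA73A and 0.39 and 0.37 for SNORA73B. Without the pair, the other 62 SNORA summed to between 2225 TPM at PP and 2979 TPM at PGT. Both RNAs come from 1 host transcript and are near-identical, so they are not independent of each other.

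Among the Cajal body RNAs, 12 of 15 had their lowest level in hESCs, and 11 of 15 had their highest in PH (6) or SC-β organoids (5). The matching shares of all names were not counted, so this is a description only. The median of all names was also above hESCs in each later stage, narrowly in PH. SCARNA11 and SCARNA15, highest in SC-β organoids, reached the limit of 10 TPM through that stage alone. SCARNA10 (U85), a mixed C/D and H/ACA guide for the U5 spliceosomal RNA, was at 676 TPM in hESCs, 1395 in DE, 2486 at PGT, 2081 at PP, 4313 at PH and 2230.5 in SC-β organoids. It was the most abundant of the 79 RNAs in PH, where it stood above both SNORA73 copies. SCARNA21, an H/ACA type RNA, was at 33.8 TPM in hESCs, 169 in DE, 273 at PGT, 296 at PP, 1023 at PH and 678 in SC-β organoids. Its log2 ratio to hESCs was 4.88 at PH and 4.29 in SC-β organoids, and it passed the limit in all 5 later stages. SCARNA9, a C/D type guide for the U2 RNA, was at 54.7 TPM in hESCs, 168 in DE, 196 at PGT, 173 at PP, 176 at PH and 296 in SC-β organoids, and also passed it in all 5.

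SCARNA2, another guide for the U2 RNA, which is known to be made from a gene of its own, stood at 485 TPM in hESCs, 335 in DE, 529.5 at PGT, 578 at PP, 1416 at PH and 684 in SC-β organoids. It passed the limit in PH alone of the 5 stages, and after rescaling also in DE, where it was lower (-1.01). SCARNA7 (U90), a C/D type guide for the U1 RNA, was at 337 TPM in hESCs, 421 in DE, 684 at PGT, 689 at PP, 964 at PH and 962 in SC-β organoids, and was higher from PGT on. SCARNA13, a tandem H/ACA RNA, was at 186 TPM in hESCs, 225 in DE, 434 at PGT, 379 at PP, 692 at PH and 372 in SC-β organoids, and passed the limit in PGT, PP and PH. After rescaling, SCARNA7 kept PH alone of its 4 calls, with 0.68 at PGT, 0.78 at PP and 0.99 for SC-β organoids, and SCARNA13 also kept PH alone, with 0.88 at PGT and 0.78 at PP. These RNAs had their highest level in PH. SCARNA17, a C/D type RNA, was at 54.9 TPM in hESCs, 151 in DE, 134 at PGT, 87.8 at PP, 131 at PH and 176 in SC-β organoids, above the limit in every stage but PP, though DE (0.97) and PGT (0.94) were lost after rescaling. SCARNA1, an H/ACA guide for the U2 RNA, was at 5.41 TPM in hESCs, 10.5 in DE, 24.3 at PGT, 12.8 at PP, 14.1 at PH and 17.2 in SC-β organoids. SCARNA22 was at 31.0 TPM in hESCs, 55.0 in DE, 84.3 at PGT, 99.3 at PP, 57.2 at PH and 78.9 in SC-β organoids.

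The level of 4 Cajal body RNAs stayed within 2-fold of hESCs in every stage. SCARNA5 and SCARNA6 (U87 and U88), mixed guides from introns of 1 host gene, ATG16L1, had unlike courses. SCARNA5 was at 278 TPM in hESCs, 371 in DE, 535 at PGT, 374 at PP, 528 at PH and 537 in SC-β organoids. SCARNA6 was at 140 TPM in hESCs, 107 in DE, 107 at PGT, 91.0 at PP, 115 at PH and 138 in SC-β organoids. The former was lowest and the latter highest in hESCs. SCARNA12 ranged from 11.9 to 19.0 TPM and SCARNA16 from 38.6 to 72.0 TPM. The remaining SCARNA11 and SCARNA15 were low, from 1.93 to 11.2 TPM and from 4.73 to 14.5 TPM. Both were highest in SC-β organoids, where each passed the 2-fold limit, SCARNA15 only without rescaling (0.98 with it). Both reached 10 TPM in that stage alone, so it brought them into the set and their highest stage was fixed by the choice.

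**Figure D2:**
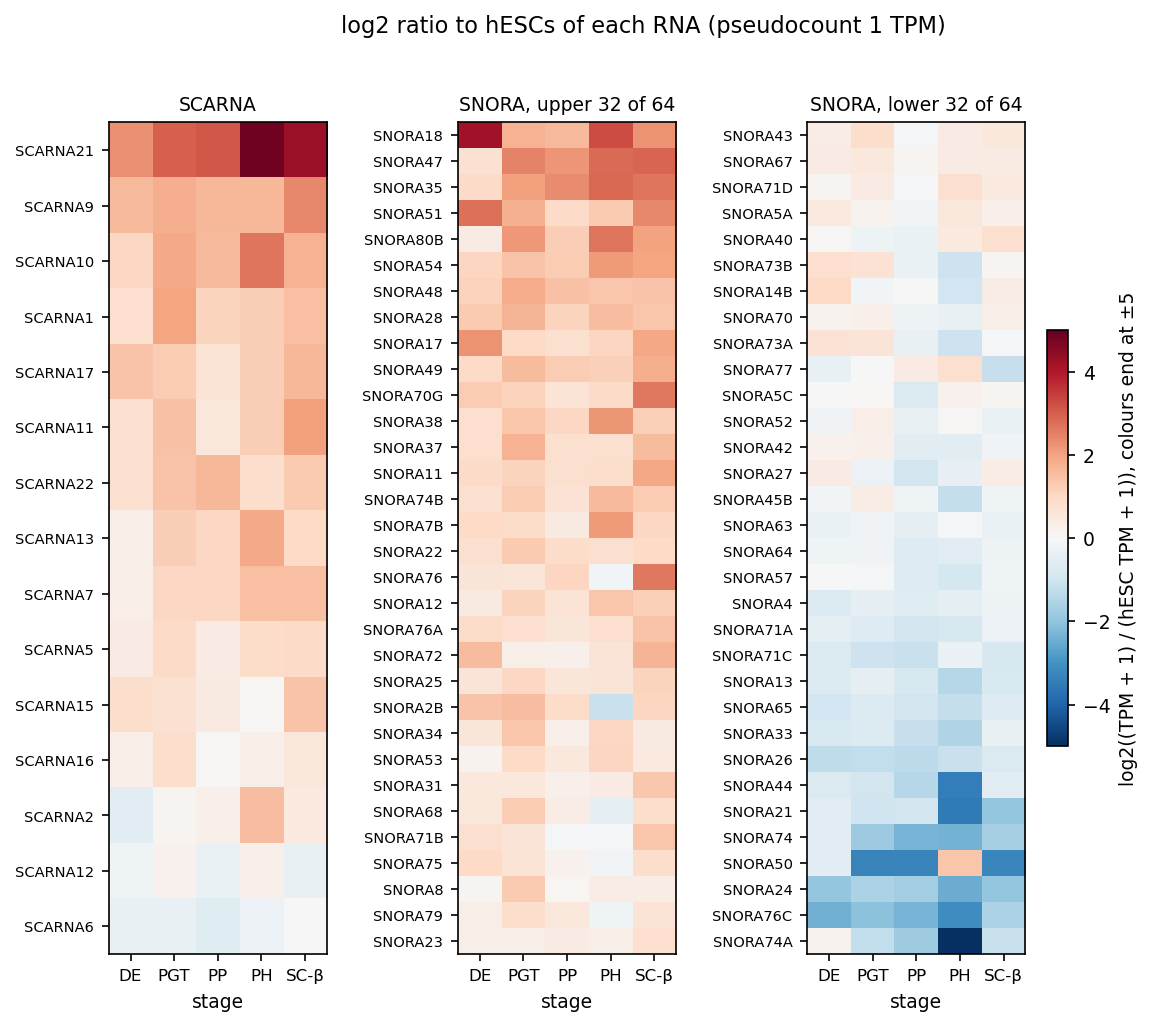
log2 ratio of each RNA to hESCs (colour, pseudocount 1 TPM) in the 5 later stages (x axis), with the 15 SCARNA at left and the 64 SNORA, ordered by their mean ratio, in the other panels. SCARNA21 reaches 4.88 at PH, while SNORA74A at the bottom right lies at -7.72 at PH, beyond the end of the colour scale.

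In DE, 16 of the 79 RNAs were at least 2-fold above hESCs, where 23.9% of all 12849 names at 10 TPM were, and 3 were at least 2-fold below, where 5.95% of all names were. In PGT, 32 were above (all names 22.2%) and 8 below (10.2%). In PP, 17 were above (19.1%) and 9 below (9.39%). In PH, 26 were above (23.1%) and 14 below (22.0%). In SC-β organoids, 34 were above (32.7%) and 7 below (9.07%). The shares of the 79 RNAs above were 20.3%, 40.5%, 21.5%, 32.9% and 43.0% in these stages, above those of all names in PGT, PH and SC-β organoids and close to them in DE and PP. The median log2 ratio of the 79 was 0.42 in DE, 0.72 at PGT, 0.25 at PP, 0.42 at PH and 0.81 in SC-β organoids, against 0.39, 0.26, 0.22, 0.02 and 0.47 for all names. All names were chosen by the same limit, which 8162 of the 12849 reached in hESCs, against 54 of the 79.

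Part of each ratio was shared by most genes. Rescaling every stage by its median ratio over 13938 genes shifted levels relative to hESCs, on the log2 scale, by -0.48 in DE, -0.34 at PGT, -0.25 at PP, -0.03 at PH and -0.52 in SC-β organoids. With the pseudocount, the shift of the single RNAs ranged from -0.48 to -0.29 in DE and from -0.22 to 0.11 in PH. After it, 6 RNAs were above and 12 below hESCs in DE, 20 and 10 at PGT, 11 and 14 at PP, 26 and 15 at PH, and 19 and 12 in SC-β organoids. The balance in DE and PP thus turned from more RNAs above to more below, whereas PGT, PH and SC-β organoids kept more above. The median log2 ratios of the 79 were then -0.04, 0.39, 0.02, 0.39 and 0.34. The median of all names then ran from -0.02 at PGT to 0 at PP. Shares of all names past the limit were not counted per stage after rescaling, so these counts are a description only.

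Counts by class stand beside the shares of all names given above, and differences between classes were not tested. Of the 15 SCARNA, 4 were higher in DE, 9 at PGT, 7 at PP, 9 at PH and 9 in SC-β organoids, and 0 of them were lower by that fold in any stage. These are 26.7%, 60%, 46.7%, 60% and 60%, close to the share of all names in DE (23.9%) and above it in the other stages. After rescaling, the counts above were 2, 6, 4, 9 and 6, and 1 SCARNA fell below the limit in DE. The shares of all names given above do not apply to these rescaled counts. Of the 64 SNORA, 12, 23, 10, 17 and 25 were above and 3, 8, 9, 14 and 7 below. The shares above were 18.8%, 35.9%, 15.6%, 26.6% and 39.1%, under that of all names in DE and PP. Of the 74 SNORD, 3, 5, 1, 6 and 7 were above and 22, 25, 39, 39 and 31 below, the latter being 29.7%, 33.8%, 52.7%, 52.7% and 41.9% where 5.95%, 10.2%, 9.39%, 22.0% and 9.07% of all names were. Median log2 ratios were 0.80, 1.22, 0.67, 1.24 and 1.44 for SCARNA, 0.41, 0.58, 0.12, 0.34 and 0.48 for SNORA and -0.55, -0.49, -1.13, -1.10 and -0.82 for SNORD, in the same order of stages.

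**Figure D3:**
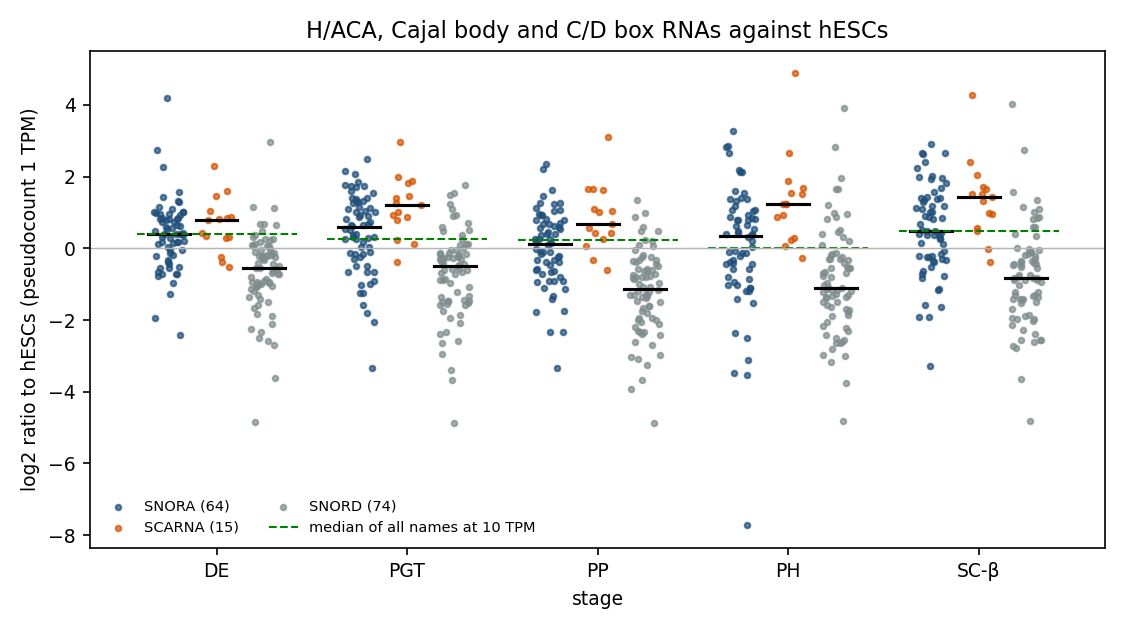
log2 ratio to hESCs (y axis, pseudocount 1 TPM) in each later stage (x axis), 1 point per RNA for 64 SNORA, 15 SCARNA and 74 SNORD, with black bars at the medians and a dashed line at the median of all 12849 names. The SCARNA medians run from 0.67 at PP to 1.44 in SC-β organoids and the SNORD medians from -1.13 at PP to -0.49 at PGT.

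Compared with the stage before it in the table, PP had 0 of 79 RNAs at least 2-fold above PGT (all names 6.87%) and 4 below (7.11%), but 68 of 79 (86.1%) had a lower mean in PP than in PGT, as did 57.5% of all names, with a median log2 ratio of -0.40 against -0.08 for all names. The 4 below were SNORA73A, SNORA73B, SNORA34 and SNORA8, with log2 ratios from -1.20 to -1.03. From PP to SC-β organoids, 13 were above (13.4%) and 2 below (2.31%), and 71 of 79 (89.9%) had a higher mean in SC-β organoids, as did 69.6% of all names, with medians of 0.50 and 0.25. From DE to PGT, 5 were above (5.19%) and 7 below (9.53%), and from PP to PH, 8 were above (8.8%) and 5 below (14.6%). From DE to PGT, 52 of 79 (65.8%) had a higher mean, as did 38.2% of all names, with medians of 0.19 and -0.13. From PP to PH, 52 of 79 (65.8%) had a higher mean, as did 37.8% of all names, with medians of 0.24 and -0.21. PP was the lowest stage for 14 SNORA and the highest for none, and PH was the highest for 13 and the lowest for 20. The matching shares of all names were not counted.

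Over all 5 stages, 42 of the 79 RNAs were above hESCs at least once and 17 below at least once, with 2 in both directions, and 22 never passed the limit. Of all 12849 names, 45.1% were above at least once, 26.0% below at least once, 4.29% both and 33.1% never. The 8 RNAs above in every stage (all names 7.49%) were SCARNA9, SCARNA10, SCARNA21, SNORA18, SNORA28, SNORA48, SNORA49 and SNORA54. After rescaling 3 of these were still above in every stage (all names 4.47%), namely SCARNA9, SCARNA21 and SNORA18. The others lost DE, at rescaled log2 ratios from 0.54 to 0.87, and SNORA28 and SNORA48 lost further stages. SNORA49 was at 31.9 TPM in hESCs, 65.2 in DE, 98.9 at PGT, 77.7 at PP, 73.3 at PH and 115 in SC-β organoids. SNORA28 was at 10.1 TPM in hESCs, 26.8 in DE, 35.3 at PGT, 23.1 at PP, 31.5 at PH and 28.1 in SC-β organoids. Both are single entries in the table, the first highest in SC-β organoids and the second in PGT. SNORA54, also a single entry, was at 4.84 TPM in hESCs, 11.5 in DE, 14.5 at PGT, 13.1 at PP, 24.3 at PH and 22.2 in SC-β organoids. Later stages brought SNORA18 and SNORA54 into the set, as both were under 10 TPM in hESCs. SNORA48 was at 21.4 TPM in hESCs, 48.5 in DE, 80.2 at PGT, 60.7 at PP, 57.3 at PH and 58.3 in SC-β organoids.

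SNORA47 and SNORA35 had, beside SCARNA21, the largest ratios in SC-β organoids. SNORA47, a single entry in an intron of ZBED3, was at 8.0 TPM in hESCs, 14.1 in DE, 49.7 at PGT, 40.6 at PP, 63.0 at PH and 67.1 in SC-β organoids, and its log2 ratio in the last was 2.92. SNORA35, which lies in an intron of the serotonin receptor gene HTR2C, was at 1.46 TPM in hESCs, 3.77 in DE, 9.29 at PGT, 11.5 at PP, 16.9 at PH and 14.5 in SC-β organoids, and its last log2 ratio was 2.66. SNORA80B was at 2.37 TPM in hESCs, 3.42 in DE, 14.05 at PGT, 6.97 at PP, 20.5 at PH and 12.6 in SC-β organoids. On the log2(TPM + 1) scale all 3 were within 2-fold of hESCs in DE, SNORA35 narrowly (0.96), and above in each later stage. SNORA53 was at 243 TPM in hESCs, 273 in DE, 490.3 at PGT, 352 at PP, 513 at PH and 337 in SC-β organoids, and passed the limit in PGT and PH, the former only without rescaling (0.68 with it).

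Lower in every stage were 2 RNAs, SNORA24 and SNORA76C (all names 2.79%), and after rescaling 6 were (all names 5.54%). SNORA24, a guide for the RNA of the small ribosomal subunit, was at 70.8 TPM in hESCs, 17.8 in DE, 22.9 at PGT, 20.6 at PP, 11.8 at PH and 17.9 in SC-β organoids, with log2 ratios from -2.49 to -1.59. SNORA76C was at 36.5 TPM in hESCs, 6.03 in DE, 8.04 at PGT, 6.40 at PP, 3.32 at PH and 11.6 in SC-β organoids. In both, the step from hESCs to DE was already most of the difference. The name SNORA76 leads to the same reference locus as SNORA76C but had another course. Over 3 entries it was at 11.3 TPM in hESCs, 18.2 in DE, 17.9 at PGT, 24.8 at PP, 10.3 at PH and 76.2 in SC-β organoids. How reads were shared between these 2 names was not tested. SNORA26 was at 26.9 TPM in hESCs, 10.4 in DE, 10.8 at PGT, 10.1 at PP, 12.0 at PH and 15.8 in SC-β organoids, below the limit in all stages but the last.

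The largest single difference was that of SNORA74A (U19), which was at 304 TPM in hESCs, 343 in DE, 128 at PGT, 88.4 at PP, 0.446 at PH and 139 in SC-β organoids. Its log2 ratio in PH was -7.72, while in DE it was 0.17, or -0.31 after rescaling. SNORA74B, a related RNA, was at 21.9 TPM in hESCs, 39.4 in DE, 54.4 at PGT, 36.3 at PP, 68.9 at PH and 54.6 in SC-β organoids. In PH the pair therefore stood in the opposite order to hESCs. The name SNORA74, used by the table for 7 further entries, summed to 69.8 TPM in hESCs, 47.0 in DE, 19.2 at PGT, 13.1 at PP, 12.7 at PH and 21.6 in SC-β organoids. This sum was lowest in PH as well, though close to PP. Its main entry was at 66.3 TPM in hESCs and 3.72 at PH, so the other entries together were not lower in PH than in hESCs. The host SNHG4 was at 73.4 TPM in hESCs, 19.3 in DE, 6.16 at PGT, 13.0 at PP, 4.40 at PH and 25.1 in SC-β organoids and was thus also lowest in PH, but by less. MATR3, which also spans SNORA74A, was at 148 TPM in hESCs and highest in PH, at 223 TPM.

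SNORA21, SNORA44 and SNORA50 had entries near 0 in some stages and over 5 TPM in others. SNORA21, a guide for the RNA of the large ribosomal subunit, fell from 135 TPM in hESCs to 10.8 TPM at PH as the sum of 2 entries. The first was at 63.2 TPM in hESCs, 42.2 in DE, 44.4 at PGT, 39.8 at PP, 10.7 at PH and 34.8 in SC-β organoids. The second was at 71.7 TPM in hESCs, 51.3 in DE, 22.2 at PGT, 31.4 at PP, 0.0629 at PH and 0.112 in SC-β organoids. With the higher entry alone, its log2 ratio in SC-β organoids was -0.84 in place of -1.92. SNORA44 was at 11.6 TPM in hESCs, 6.68 in DE, 5.66 at PGT, 3.73 at PP, 0.146 at PH and 7.73 in SC-β organoids, and its main entry was at 0.0283 TPM at PGT while its other entry there was at 5.63 TPM. SNORA50 was at 9.27 TPM in hESCs, 6.06 in DE, 0.00645 at PGT, 0.0103 at PP, 25.9 at PH and 0.0639 in SC-β organoids. SNORA50 and SNORA2B were the only RNAs called in both directions. How reads were shared between entries of 1 name was not tested, so the values near 0 of these entries and of SNORA74A are listed as the table gives them.

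SNORA18 and SNORA51 had the largest ratios in DE and rest on many entries of one name. Both were under 10 TPM in hESCs, so later stages brought them into the set. SNORA18 was at 0.809 TPM in hESCs, 32.1 in DE, 5.03 at PGT, 4.57 at PP, 16.5 at PH and 7.59 in SC-β organoids over 5 entries, and its main entry was at 0.0654 TPM in hESCs. SNORA51 was at 3.92 TPM in hESCs, 32.1 in DE, 15.7 at PGT, 8.63 at PP, 11.3 at PH and 25.1 in SC-β organoids over 12 entries, of which the highest held 40.9%. Among the 79 RNAs, 35 had 1 entry and 44 had several, 241 entries in all, up to 18 for SNORA31. In 21 of the 44, over 90% of the level was in 1 entry, as in SCARNA21 (99.4%), SCARNA10 (94.4%) and SNORA70 (92.9% of 13 entries). The entries of SCARNA10 kept a ratio of 16.3 to 17.4 in the 6 stages. In 6 of the 44, no single entry reached 10 TPM.

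Among the 79 RNAs the longer ones were listed at higher levels, but the same level chose them, so this is a description only. As background, a library made from size-selected fragments samples RNAs shorter than the fragments less well and TPM divides by a length that is then uncertain. The RNAs with 1 annotated locus, 69 of 79, were 122 to 420 bases long. The median of the highest stage level was 32.1 TPM in the 52 RNAs under 150 bases, 111 TPM in the 4 of at least 150 but under 200 bases and 537 TPM in the 13 of 200 bases or more. Over 100 TPM were 8 of the 52 shortest and 10 of the 13 longest. SCARNA21, with 139 bases and 1023 TPM, and SNORA71B, with 272 bases and 10.3 TPM, stand apart from this order. Whether the abundance of the long RNAs reflects the cells or the library cannot be told apart here. Of the 13 longest, 8 were SCARNA, so ratios are given within the classes. The median log2 ratio in PGT was 1.42 for the 5 SCARNA under 150 bases and 0.98 for the 8 of 200 bases or more, and in SC-β organoids it was 1.66 and 0.97. For SNORA in PP it was 0.25 for the 47 shortest and -0.10 for the 5 longest. In other stages the order was the reverse. The SCARNA medians, shortest first, were 0.67 and 0.73 in PP and 1.24 and 1.53 in PH. Those of SNORA were 0.41 and 0.81 in DE and 0.55 and 0.72 in PGT.

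**Figure D4:**
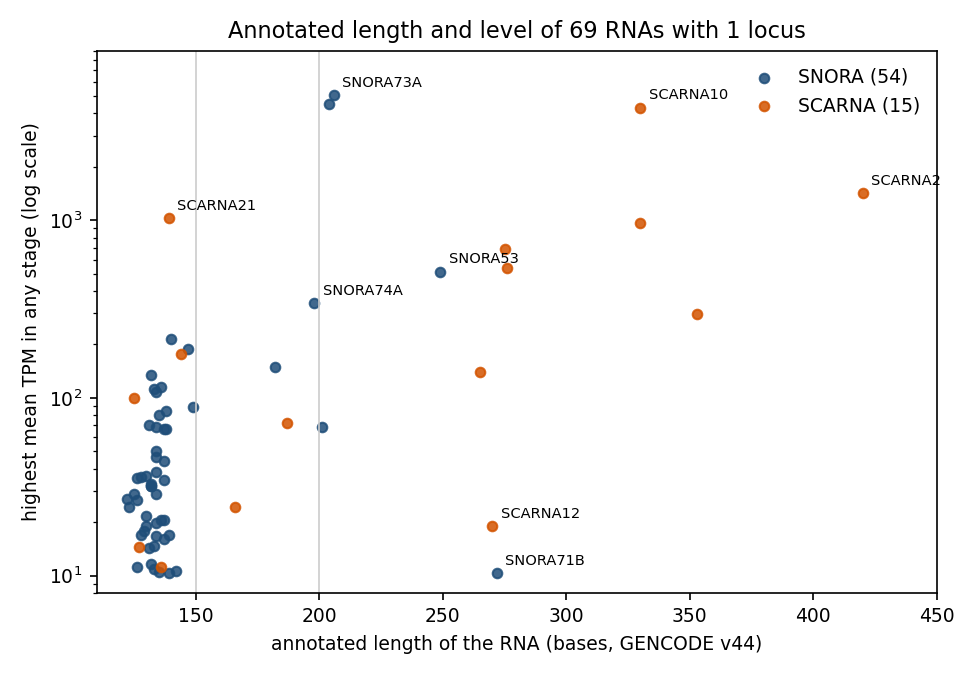
Highest mean TPM in any stage (y axis, log scale) against annotated length in bases (x axis) for the 69 RNAs with 1 locus, SNORA and SCARNA apart, with grey lines at 150 and 200 bases. Of the 13 RNAs at 200 bases or more, 10 exceed 100 TPM, against 8 of the 52 under 150 bases.

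Of the 69 RNAs, 67 lay in an intron of a gene on the same strand, SCARNA2 overlapped an exon of an unnamed long noncoding RNA and SNORA70G had no such gene. The 68 RNAs with a host had 57 different hosts, and the host was protein coding for 49 of them, a long noncoding RNA for 18 and a pseudogene for 1. The host was named SNHG, a small nucleolar RNA host gene, for 14 of them and was a ribosomal protein gene for 8. For 66 RNAs the host had a level in the table. Pearson's r of log2(TPM + 1) over the 6 stage means, given as a description, had a median of 0.33 and ranged from -0.84 to 0.97, with 30 pairs above 0.5 and 20 below 0. In the 32 pairs whose RNA had 1 entry the median was 0.51, with 17 above 0.5 and 7 below 0. The points share the TPM total of each stage, and several pairs share a host.

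The RNAs closest to their hosts were SCARNA17 with SNHG22 and SCARNA21 with CHD3, both at r = 0.97, and SNORA24 with SNHG8 at r = 0.95. CHD3 was at 4.99 TPM in hESCs, 41.9 in DE, 29.7 at PGT, 55.5 at PP, 138 at PH and 96.9 in SC-β organoids, so that SCARNA21 and its host were both lowest in hESCs and highest in PH. SNORA48 with EIF4A1 (r = -0.84) and SNORA53 with SLC25A3 (r = -0.81) moved against their hosts, but the level of SNORA48 is a sum over 11 entries. SNORA73A and SNORA73B had r = 0.72 and 0.69 with SNHG3, which was at 117 TPM in hESCs, 56.2 in DE, 62.0 at PGT, 34.4 at PP, 13.1 at PH and 37.1 in SC-β organoids. Both RNAs were above their hESC level in DE and PGT where the host was below it. TAF1D holds SNORA8, SNORA18, SNORA25 and SNORA40, whose levels are sums over 4, 5, 15 and 14 entries. Which of these entries lie in TAF1D is not known, so their courses cannot be set against 1 host. RNAs of 1 host did not always move together, as in KANSL2, which holds SNORA34 and SNORA2B, each a single entry. In PH the log2 ratio was 1.04 for SNORA34 and -1.11 for SNORA2B. SNORA34 was at 12.5 TPM in hESCs and 26.7 at PH, and SNORA2B at 6.40 and 2.43. Across the 66 pairs, the hosts had a median log2 ratio of -0.12 in DE, -0.15 at PGT, -0.32 at PP, -0.60 at PH and -0.10 in SC-β organoids, below that of the small RNAs, at 0.43, 0.89, 0.39, 0.44 and 0.83.

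**Figure D5:**
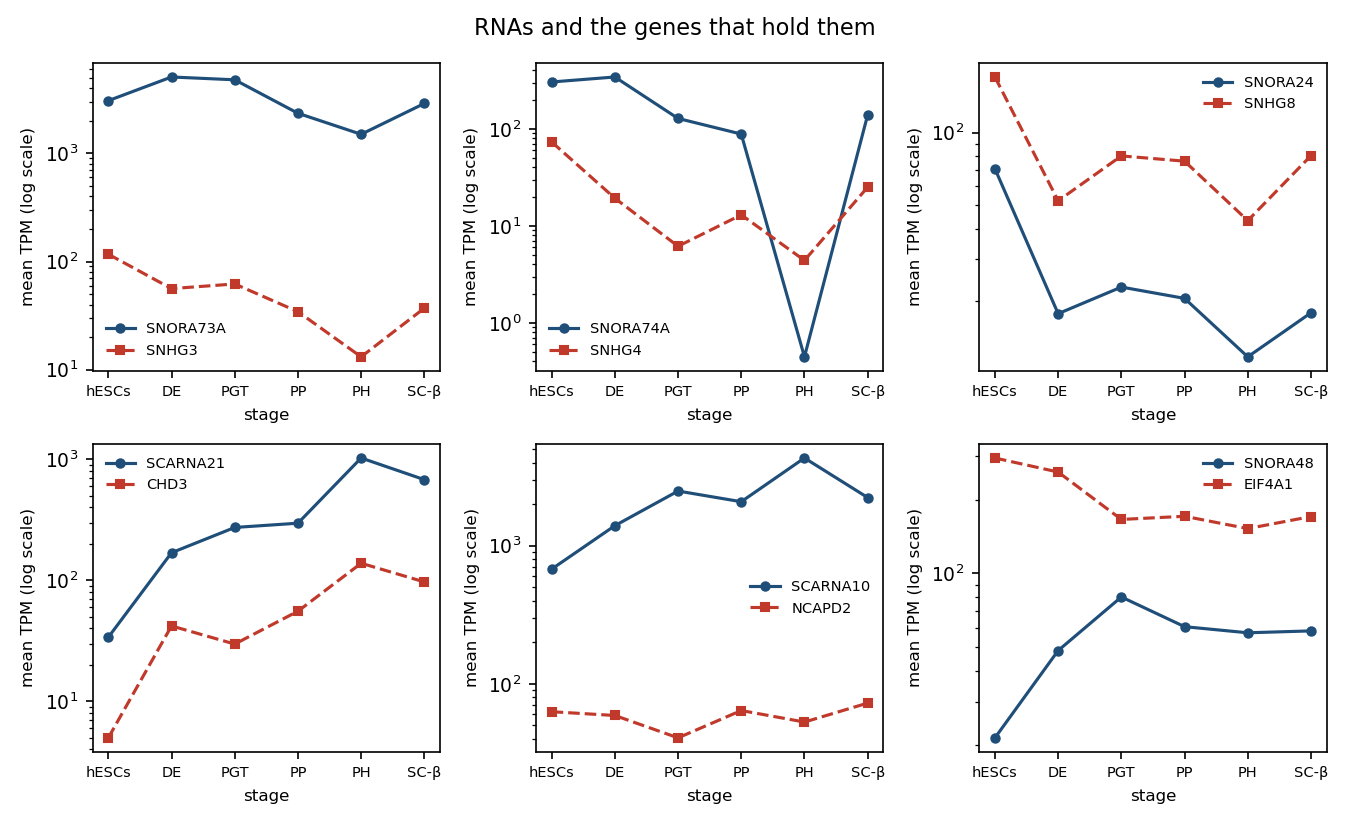
Mean TPM (y axis, log scale) at each stage (x axis) of 6 RNAs (circles) and of the genes that hold them (squares). SCARNA21 and CHD3 are both lowest in hESCs and highest in PH, whereas SCARNA10 has its highest level, 4313 TPM, in PH without a matching course of NCAPD2 (r = -0.34).

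Genes for the proteins that bind, assemble or process these RNAs were mostly lower in PH than in hESCs. Of 20 such genes in the table, from 5 lists of H/ACA core, H/ACA assembly, Cajal body, 3′ trimming and C/D core proteins, 0 were at least 2-fold above hESCs in any stage, and 0 were below in DE, 3 at PGT, 0 at PP, 13 at PH and 1 in SC-β organoids. Their median log2 ratios were -0.34, -0.76, -0.54, -1.44 and -0.38. DKC1, the pseudouridine synthase, was at 82.7 TPM in hESCs, 50.1 in DE, 48.8 at PGT, 50.5 at PP, 25.1 at PH and 47.4 in SC-β organoids. NOP10 was at 307 TPM in hESCs, 163 in DE, 150.1 at PGT, 156 at PP, 62.4 at PH and 108 in SC-β organoids. All 4 core proteins were below the limit in PH, where NHP2 was at 44 TPM and GAR1 at 3.52 TPM. Of the 5 Cajal body genes, NOLC1, SMN1 and TGS1 were below it in PH, at 21.3, 3.99 and 10.4 TPM. COIL, the Cajal body scaffold, was at 15.5 TPM in hESCs and 18.2 at PH, and WRAP53, which carries H/ACA RNAs to Cajal bodies, at 11.2 and 8.45 TPM. Their counts in PH stand beside a background of 22.0% of all names below.

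PH also had the highest share of TPM in 6 abundant structural RNAs (the 7SL names RN7SL1, RN7SL2 and Metazoa_SRP, the RNase RNAs RMRP and RPPH1, and RN7SK), which took 39.0% in hESCs, 31.8% in DE, 36.9% at PGT, 42.2% at PP, 50.9% at PH and 33.9% in SC-β organoids. RN7SK alone was at 32346 TPM in hESCs and 196550 at PH. With TPM recomputed without them, 35 of the 79 RNAs were above hESCs in PH and 8 below, and the median log2 ratio was 0.73. The same step raised the median log2 ratio of all names in PH by 0.29, so much of this move is common to most genes. The matching shares of all names were not counted. TERC, the telomerase RNA and an H/ACA RNA with a gene of its own, ranged from 0.309 to 0.468 TPM and had no stage past the limit.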

How the data were processed

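RNA-seq of 12 samples, 2 for each of 6 stages, was analysed. Per the labels and methods, total RNA was depleted of ribosomal RNA. The labels also name a library kit made for stranded mRNA, while the methods describe random hexamer priming and size selection with no such kit. Whether poly(A) RNA was selected is not stated, and either step changes how much of a short RNA without a poly(A) tail is recovered, so TPM values here are levels in these libraries. Reads were paired 50 base ends. HISAT2 2.2.0 was used by the authors for alignment to hg38 and StringTie 2.1.6 for TPM, and the deposited table holds 1 mean TPM per gene entry and stage. The gene annotation and any correction for short RNAs are not given in the sources used here. Counts and the depth of single samples are not used here, so no interval, detection floor or p-value is given, and limits on precision are unknown.

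The 50451 entries were summed by name (49085 names, 231 with several entries). RNAs were SNORA or SCARNA names reaching 10 TPM in any stage. Ratios are log2((TPM + 1)/(TPM in hESCs + 1)), called at 2-fold, beside the same share over 12849 names at 10 TPM. RNAs were matched to GENCODE v44 (65 of 79 by symbol and 4 by a RefSeq synonym to 1 locus; 10 had several or none), and sequences were read from hg38. The host was the gene containing the RNA on its strand, preferring names in the table, then SNHG names, then protein-coding genes, then the smallest. Named RNAs were the 10 most abundant, the 3 highest and 3 lowest ratios per stage, every SCARNA, SNORA73A and SNORA73B, RNAs next to the limit, and RNAs with several entries; SNORA28, SNORA34, SNORA49, SNORA54, SNORA74B, SNORA2B and SNORA53 were in part chosen after their values were seen. The RNAs and gene lists were chosen with earlier results of these data known. The calculation was checked on data without noise that held 4-fold changes, where 200 of 200 changed genes were recovered. This checks the arithmetic only, not the precision of short RNA levels. Python 3.11.15, numpy 2.4.6, pandas 2.3.3 and Biopython 1.88 were used. Alternatives were a pseudocount of 0.1 TPM, median-ratio rescaling, removal of structural RNAs, the highest entry per name, no minimum, the preceding stage as reference and, added after seeing the data, RNAs with 1 entry only. All other assays of the study were not analysed here. 1 sequence is not reported here.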

Additional observations from a re-analysis of the deposited data

How the results depend on the processing

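No paired analysis was possible because the table holds 1 mean per stage, and for the same reason no replicate could be left out. Of 204 summary values recomputed under an alternative, 162 stayed close to the reported value and 42 moved by more than the limits set (1.5 times for a count). Another pseudocount, the highest entry per name and no minimum level moved none of the summary counts. Without a minimum the set had 143 RNAs in place of 79, so like counts are smaller shares. In PGT, 39 of the 143 were above hESCs, where 32 of the 79 were. The median log2 ratios of the 143 were 0.32, 0.36, 0.11, 0.27 and 0.63 in DE, PGT, PP, PH and SC-β organoids, each lower than for the 79. Median-ratio rescaling gave 6, 20, 11 and 19 RNAs above hESCs in DE, PGT, PP and SC-β organoids, 12, 14 and 12 below in DE, PP and SC-β organoids, 2 SCARNA above in DE and 4 in PP, 1 SCARNA below in DE, and 38 SNORD below in DE. The shares of all names in single stages after rescaling were not counted. Rescaling left 3 of the 8 RNAs above in every stage (all names 4.47%) and gave 6 below in every stage (all names 5.54%) in place of 2. It turned the median log2 ratio in DE to -0.04. Without the structural RNAs, 8 RNAs were below in PH, where the median of all names rose by 0.29. Against the preceding stage, 5, 0, 8 and 13 RNAs were above in PGT, PP, PH and SC-β organoids, 4, 5 and 2 below in the last 3 of these, and the median in PP was -0.40. In the same comparison 1, 0, 3 and 3 SCARNA were above and 2, 6, 3 and 1 SNORD below in PGT, PP, PH and SC-β organoids. These counts answer another contrast. With the 35 RNAs on 1 entry, a smaller set by construction, 8, 16, 10, 13 and 15 were above and 1, 3, 3, 8 and 2 below in DE, PGT, PP, PH and SC-β organoids, and of its 7 SCARNA 1, 5, 4 and 4 were above in DE, PGT, PH and SC-β organoids. Of 476 values of single RNAs, 462 stayed close and 14 moved, and 0 of those past the 2-fold limit reversed direction. Smaller ratios did change sign. Over summary and single values together there were 16 sign changes, such as SCARNA13 in DE, from 0.28 to -0.20 after rescaling. The cause was not tested. Depth limits could not be set.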
